A study of Arabidopsis thaliana with 12 samples.

Results

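HEMA3 (AT2G31250), CHLM (AT4G25080) and AT1G74470 are 3 nuclear genes of Arabidopsis thaliana whose products act in tetrapyrrole and chlorophyll synthesis. They were chosen as the genes of that pathway that a probe of the array named alone, and each had 1 such probe. They were 3 of the 691 loci named in this way, on an array with 3439 probes. Total RNA of 2 genotypes was hybridised, each to 6 single-channel arrays. The WT arrays carried wild-type RNA and the toc160 arrays carried RNA of the toc160 mutant, both in ecotype Wassilevskija. The mutant imports proteins poorly across the outer envelope of the chloroplast, and TOC160 is a synonym of TOC159, the gene of an import receptor at that envelope. The labels used here give no allele, age, tissue, growth condition or treatment. They do not say whether replicates were separate plants, so every p-value measures only the spread between these samples, which may be technical.

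Chlorophyll and haem are made in the plastid from one tetrapyrrole route that starts from glutamate bound to its transfer RNA. Glutamyl-tRNA reductase, which HEMA genes encode, takes the first committed step and is the main point of control. After magnesium is inserted into protoporphyrin, the route is committed to chlorophyll, and CHLM methylates the magnesium protoporphyrin. Geranylgeranyl reductase, the product of AT1G74470, supplies the phytyl tail of chlorophyll and also of tocopherol. These enzymes are made in the cytosol and imported into the plastid. HEMA3 belongs to a small family with HEMA1, the main form in green tissue, and HEMA2.

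Arrays numbered 1 and 2, 3 and 4, and 5 and 6 within a genotype were close to duplicates, with Spearman correlations of 0.983 to 0.990 over all probes against 0.871 to 0.945 for other arrays of a genotype. Each such pair of arrays was averaged and counted once, which gave 3 pair averages per genotype (n = 3). The deposited intensities summed to between 3612 and 3681 on WT arrays and between 3720 and 3815 on toc160 arrays. Array medians were 0.477 to 0.551 in WT and 0.627 to 0.646 in toc160. On the deposited scale the median of all loci was therefore higher in toc160 by 0.33 on the log2 scale, and quantile normalization reduced that shift to 0.03. The number of arrays limits the precision, and fewer cells of a type cannot be told apart from less RNA per cell. No probe named TOC159, so the mutated gene was not checked.

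The probes of all 3 genes read above the floor of 0.0364 on all 12 arrays. That floor was set from the positive values and not from a background signal. Reading above it therefore does not show that a transcript was detected. The AT1G74470 probe was brighter than 89.4% to 95.4% of the probes on each array, the HEMA3 probe than 78.4% to 88.8%, and the CHLM probe than 65.7% to 85.1%. Brightness differs between probes for the same amount of RNA, so these shares do not rank the transcripts. In toc160 minus WT, after quantile normalization, the log2 difference was -0.15 for HEMA3, 0.22 for CHLM and -0.02 for AT1G74470. None of the 3 passed a limma adjusted p of 0.05 on pair averages, and none had an unadjusted p under 0.05. In that fit 0.434% of the 691 loci passed, 3 in all, and 77 loci had an unadjusted limma p under 0.05. It left out the pairing of the genotypes by replicate number. Blocked by pair, none of the 3 had an unadjusted limma p under 0.05 after quantile normalization, where 186 of the 691 loci did. As deposited, the pair block gave CHLM an unadjusted limma p of 0.036, and 374 of the 691 loci fell under 0.05. With median centring it gave HEMA3 0.032 and AT1G74470 0.020, and 233 loci fell under 0.05. None of the 3 passed in these blocked fits after adjustment.

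**Figure D1:**
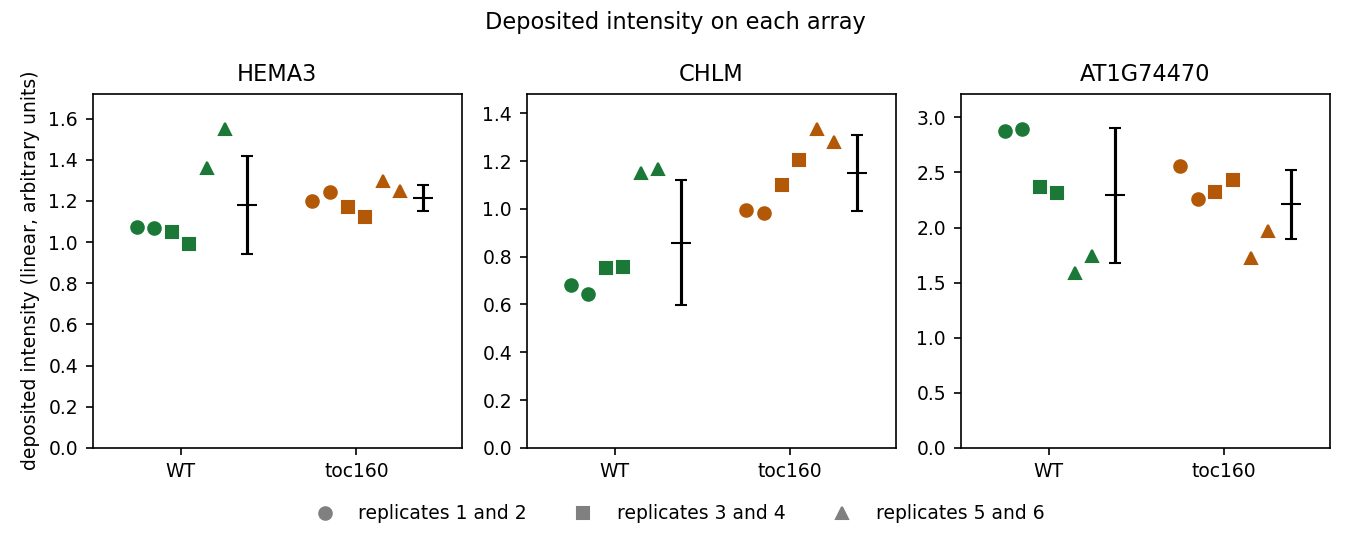
Deposited intensity (vertical axis, linear, arbitrary units, starting at 0) of HEMA3, CHLM and AT1G74470 on each of the 12 arrays, in green for WT and orange for toc160, with the marker shape giving the pair of replicate numbers and the black bar the mean ± SD of 3 pair averages. The WT arrays of replicates 5 and 6 stand above the other WT arrays for HEMA3 and CHLM and below them for AT1G74470, and the toc160 arrays spread less.

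HEMA3 encodes the enzyme of the first committed step. Its deposited intensity on WT arrays ranged from 0.989 to 1.55 with a median of 1.07, and on toc160 arrays from 1.12 to 1.30 with a median of 1.22. The genotypes overlapped, and the highest and the lowest arrays were both WT. The WT mean was 1.18 ± 0.238 and the toc160 mean 1.22 ± 0.0637 (SD over 3 pair averages). Pair averages in WT were 1.07, 1.02 and 1.45 for replicates 1 and 2, 3 and 4, and 5 and 6. In toc160 they were 1.22, 1.15 and 1.27. The toc160 value was thus the higher one in the pairs 1 and 2, and 3 and 4, and the lower one in replicates 5 and 6.

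The sign of the HEMA3 difference depended on the scaling. As deposited the log2 difference was 0.06 (SE 0.15), which lies below the 0.33 by which the median locus was higher in toc160. After quantile normalization it was -0.15 (SE 0.12, limma adjusted p 0.819), with a 95% interval from -0.47 to 0.16, or 0.724- to 1.12-fold. With median centring it was -0.27 and with cyclic loess -0.16. On each of these 3 normalized scales the toc160 array was lower than the WT array of the same number for 6 of 6 numbers, but as deposited for 2 of 6. HEMA3, like CHLM and AT1G74470, did not pass limma on pair averages as deposited, with median centring or with cyclic loess, where 4.34%, 1.59% and 0.579% of loci passed. Blocking HEMA3 by pair gave an SE of 0.06 and a limma adjusted p of 0.263, in a fit in which 1.74% of loci passed. Whether the HEMA3 probe also binds transcripts of HEMA1 or HEMA2 was not tested.

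CHLM encodes the methyltransferase of the magnesium branch. Its deposited intensity on WT arrays ranged from 0.644 to 1.17 with a median of 0.756, and on toc160 arrays from 0.984 to 1.33 with a median of 1.15. The 4 WT arrays of replicates 1 to 4 lay below all toc160 arrays, and those of replicates 5 and 6 lay among them. The WT mean was 0.859 ± 0.263 and the toc160 mean 1.15 ± 0.159 (SD over 3 pair averages). The pair averages in WT were 0.663, 0.756 and 1.16, and in toc160 0.989, 1.15 and 1.31. The toc160 array was brighter than the WT array of the same number for 6 of 6 numbers as deposited and after quantile normalization, for 5 of 6 with cyclic loess and for 4 of 6 with median centring.

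After quantile normalization the CHLM log2 difference was 0.22 (SE 0.19, limma adjusted p 0.852), with a 95% interval from -0.28 to 0.71, or 0.824- to 1.64-fold. Within pairs the log2 differences were 0.25 for replicates 1 and 2, 0.33 for replicates 3 and 4 and 0.06 for replicates 5 and 6. As deposited they were 0.58, 0.61 and 0.17, against 0.379, 0.338 and 0.237 for the median locus in those pairs. CHLM thus exceeded the median locus in the first and second of these pairs and lay below it in replicates 5 and 6. With median centring the third pair had a log2 difference of -0.07 and the mean was 0.13. Leaving out replicates 5 and 6 gave a log2 difference of 0.29 (SE 0.08, limma adjusted p 0.344), in a fit with 0 loci called and 86 at an unadjusted p under 0.05.

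The fits treated the near-duplicate arrays and the pairing of CHLM in different ways. Blocked by pair on pair averages, the SE was 0.07 and the limma adjusted p 0.201. All 12 arrays without a block gave a limma adjusted p of 0.375, where 10.4% of loci passed. Blocked by replicate number, they gave 0.0269, and CHLM passed there together with 28.4% of all loci. That fit counts near-duplicate arrays as separate samples. With the near-duplicates as a random effect in the 12-array fit, in which 4.34% of loci passed, the limma adjusted p was 0.752. An exact two-sided permutation test of the 3 pair averages against 3 gave p = 0.3 for CHLM, 0.4 for HEMA3 and 0.9 for AT1G74470, where the smallest p possible is 0.1.

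**Figure D2:**
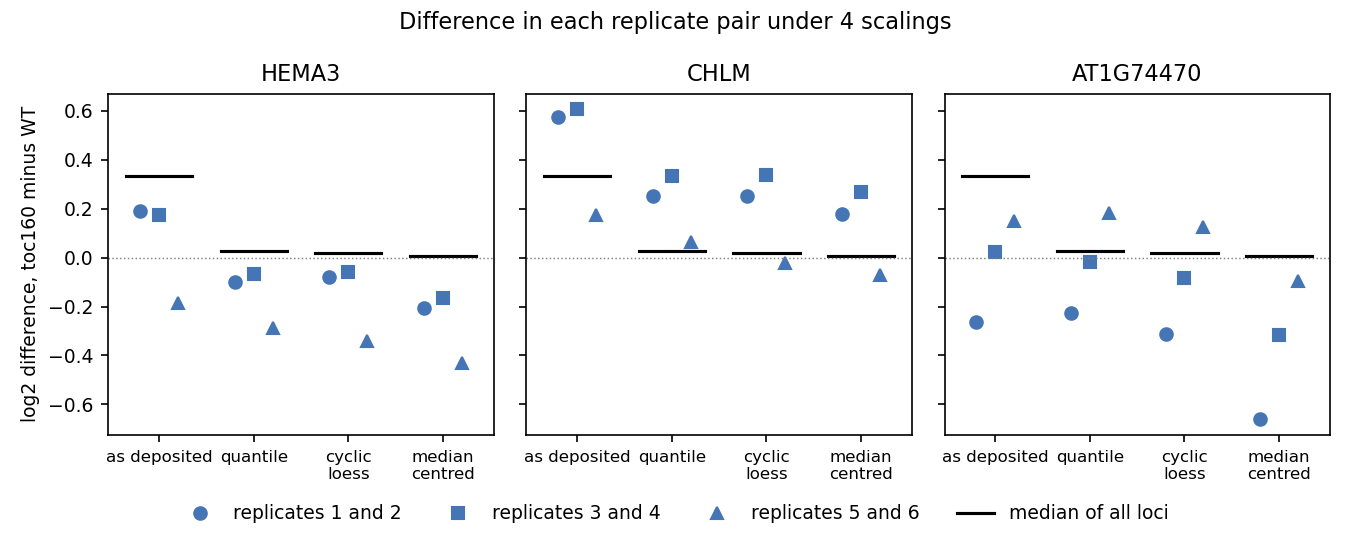
Log2 difference of toc160 minus WT (vertical axis) in each pair of replicate numbers (marker shape) for the 3 genes under 4 scalings (horizontal axis), with the black line at the median difference of all loci. CHLM lies above that line in replicates 1 and 2 and in replicates 3 and 4 under every scaling shown, HEMA3 lies below it in all 3, and AT1G74470 has its lowest difference in replicates 1 and 2.

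AT1G74470 encodes geranylgeranyl reductase. Its deposited intensity on WT arrays ranged from 1.59 to 2.90 with a median of 2.34, and on toc160 arrays from 1.72 to 2.56 with a median of 2.29. The toc160 arrays lay wholly within the WT range. The WT mean was 2.30 ± 0.613 and the toc160 mean 2.21 ± 0.316 (SD over 3 pair averages). In WT the pair averages were 2.89, 2.34 and 1.66, and in toc160 they were 2.41, 2.38 and 1.85. Replicates 5 and 6 were the lowest pair in both genotypes.

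After quantile normalization the AT1G74470 log2 difference was -0.02 (SE 0.26, limma adjusted p 1), with a 95% interval from -0.69 to 0.64, or 0.622- to 1.56-fold. Its log2 differences in the 3 pairs were -0.23, -0.02 and 0.18, so the mean of about 0 came from pairs of opposite sign. The difference turned to 0.08 without replicates 1 and 2, to 0.01 without toc160 replicate 2 and to 0.01 without toc160 replicate 5. Near-duplicate arrays of this gene differed by up to 0.214 on the log2 scale, which is more than that mean. With median centring the log2 difference was -0.36 (SE 0.27), with 6 of 6 numbers lower, and blocked by pair it had a limma adjusted p of 0.0824, in a fit in which 10.1% of loci passed. As deposited it was -0.03, where the median locus was at 0.33.

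**Figure D3:**
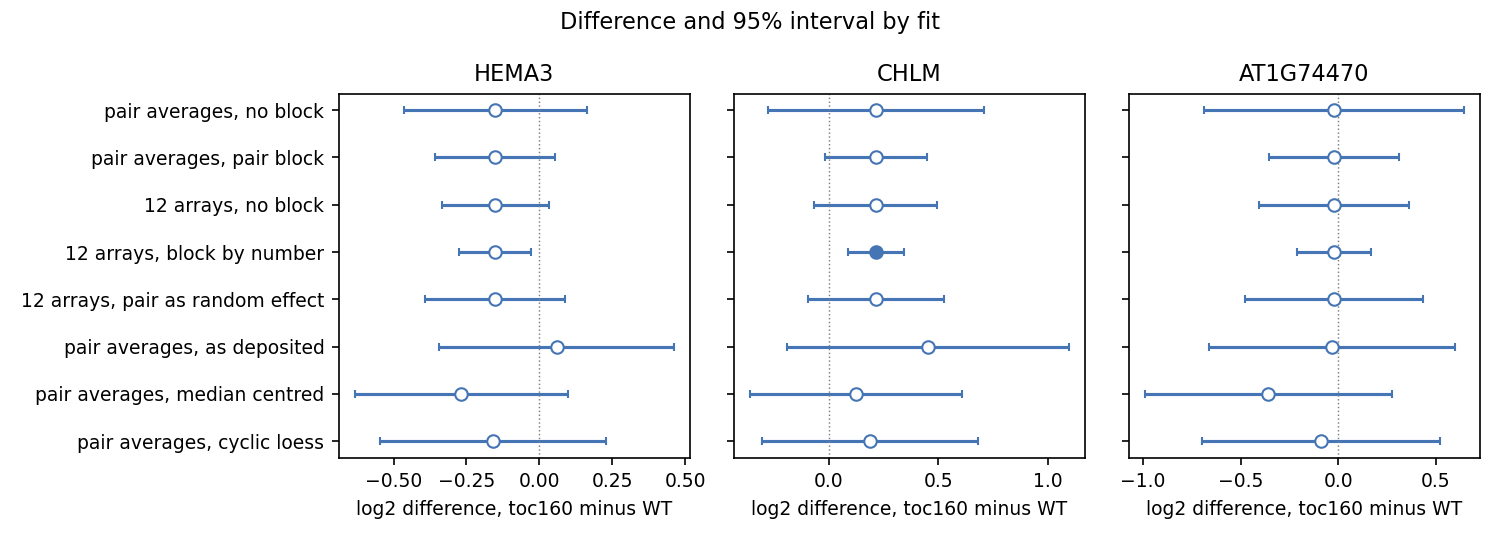
Log2 difference of toc160 minus WT (horizontal axis) with its 95% interval for each gene under 8 fits (vertical axis), where pair averages without a block is the fit used for the values above, and filled points have a limma adjusted p of at most 0.05. The only filled point is CHLM on 12 arrays blocked by replicate number, and the HEMA3 estimate lies above 0 only as deposited.

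Set against the other loci, the differences of the 3 genes were of ordinary size. Over the 691 loci the median size of the log2 difference was 0.15. The size of the CHLM difference exceeded that of 63.4% of loci, that of HEMA3 50.4% and that of AT1G74470 10%. These shares and the median include loci held at the floor on all arrays, which have no difference by construction. In the unblocked fit of pair averages as deposited, the 95% interval of CHLM ran from -0.19 to 1.10. After quantile normalization the 95% intervals of all 3 in the unblocked fit lay within 1 on the log2 scale in either direction. Without replicates 3 and 4 the interval of CHLM reached 1.11 and that of AT1G74470 ran from -1.36 to 1.31. Without replicates 5 and 6 they ran from 0.04 to 0.55 and from -0.59 to 0.34. Blocked by pair, with all pairs kept, the intervals were narrower and each included 0. They ran from -0.36 to 0.05 for HEMA3, from -0.02 to 0.45 for CHLM and from -0.35 to 0.31 for AT1G74470. A p that misses the threshold does not show that the genotypes had equal levels.

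**Figure D4:**
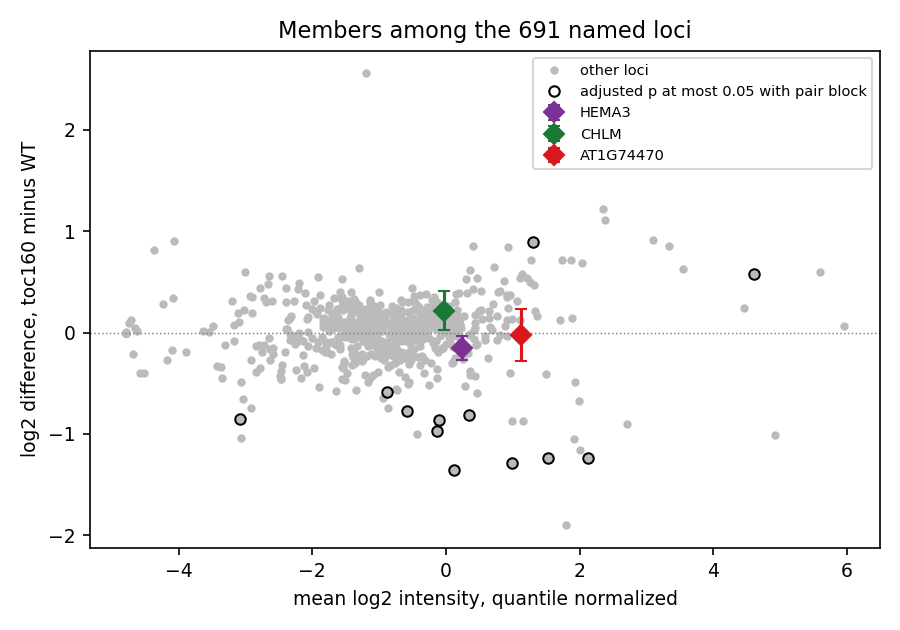
Log2 difference of toc160 minus WT (vertical axis) against mean log2 intensity (horizontal axis), both after quantile normalization, for the 691 named loci in grey, with the 3 genes as coloured diamonds with their SE and the 12 loci that passed in the pair-blocked fit ringed. The 3 genes sit within the grey cloud close to 0, and none is ringed.

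The 3 transcripts were next compared between the replicate pairs. Averaged over genotypes, the largest gap between 2 pairs was 0.64 on the log2 scale for AT1G74470, 0.46 for CHLM and 0.28 for HEMA3, against a median of 0.42 over all loci. AT1G74470 had its lowest level in replicates 5 and 6, with log2 intensities of 0.68 in WT and 0.86 in toc160 against 1.52 and 1.29 in replicates 1 and 2. CHLM had its highest level there, at 0.21 in WT and 0.27 in toc160 against -0.35 and -0.10. The limma F test of the pairs gave adjusted p values of 0.0967 for AT1G74470, 0.0924 for CHLM and 0.15 for HEMA3, so 0 of 3 passed, where 13.9% of loci passed. At an unadjusted p under 0.05 stood 2 of the 3, AT1G74470 (0.0348) and CHLM (0.0300), by limma's F test. So did 293 of the 691 loci.

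With median centring, where 45.4% of loci passed, AT1G74470 and CHLM both passed the F test of the pairs (limma adjusted p 0.0175 and 0.0358). Without the dimmest 25% of loci they passed as well (limma adjusted p 0.000726 and 0.00958), together with 60% of loci. As deposited, where 0.434% of loci passed, and with cyclic loess, where 17.1% did, neither gene passed (limma adjusted p 0.113 and 0.125, then 0.0652 and 0.08). HEMA3 passed in none of these 4 settings. The labels do not say what distinguishes the pairs. The profiles of CHLM and AT1G74470 ran opposite to each other, with Pearson's r of -0.846 over the 12 arrays and -0.875 over the 6 pair averages. For HEMA3 and CHLM r was 0.219 over the 12 arrays, and for HEMA3 and AT1G74470 -0.438. On the deposited scale r was 0.722 for HEMA3 and CHLM, -0.772 for HEMA3 and AT1G74470 and -0.746 for CHLM and AT1G74470. These correlations describe arrays that share pairs, genotype and scaling.

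The gap between the genotypes was compared between the pairs too. For CHLM it spanned 0.27 on the log2 scale, for HEMA3 0.22 and for AT1G74470 0.41. Tested against the spread between near-duplicate arrays alone, the limma F test of genotype by pair gave adjusted p values of 0.0861, 0.188 and 0.145, and 0 of 3 passed, against 10.6% of loci. At an unadjusted p under 0.05 stood CHLM (0.0150) and AT1G74470 (0.0395) by limma's F test, as did 201 of the 691 loci. As deposited, where 17.4% of loci passed, CHLM (limma adjusted p 0.0163) and HEMA3 (0.0440) passed. CHLM also passed with cyclic loess (0.0421), where 12.6% of loci did, and AT1G74470 passed with median centring (0.0409), where 12.9% did.

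Each of the 3 transcripts had the larger SD in WT. After quantile normalization the SD over pair averages on the log2 scale was 1.95 times as large in WT as in toc160 for HEMA3, 1.65 times for CHLM and 1.88 times for AT1G74470. It was larger in WT for 52.8% of all loci, with a median ratio of 1.09. As deposited the ratios were 3.63, 2.09 and 1.85, and 58.3% of loci were more variable in WT. That share was 65.8% with median centring and 64.3% with cyclic loess. An SD from 3 values is imprecise, and no test was made of these ratios.

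A ratio of 2 probes on the same array does not change when the whole array is multiplied by a factor. The log2 ratio of CHLM to HEMA3, from deposited values, averaged -0.69, -0.43 and -0.32 over the WT pairs and -0.31, 0.01 and 0.04 over the toc160 pairs. It was higher in toc160 by 0.39, 0.43 and 0.36 in the 3 pairs, a mean of 0.39 ± 0.04 (SD, n = 3). The pair averages of the genotypes did not overlap, though by little, while single arrays did. Of all pairs of loci above the floor, 16.9% had ratios that did not overlap. The exact two-sided permutation test gave p = 0.1, the smallest possible with 3 against 3, and 0.3 after Benjamini-Hochberg adjustment over the 3 ratios of these genes. After quantile normalization the mean gap was 0.37 and after cyclic loess 0.35, and pair averages then overlapped (exact p = 0.2 for both). CHLM and HEMA3 were compared after their values had been seen.

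The ratio of CHLM to AT1G74470 behaved differently between the pairs. In WT its log2 value was -2.12 in replicates 1 and 2, -1.63 in replicates 3 and 4 and -0.52 in replicates 5 and 6. In toc160 it was -1.28, -1.04 and -0.50. It was thus higher in toc160 by 0.84 and 0.58 in the first and second of these pairs and by 0.02 in replicates 5 and 6 (exact two-sided permutation p = 0.4). For HEMA3 over AT1G74470 the gaps were 0.46, 0.15 and -0.34 (exact p = 0.8).

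**Figure D5:**
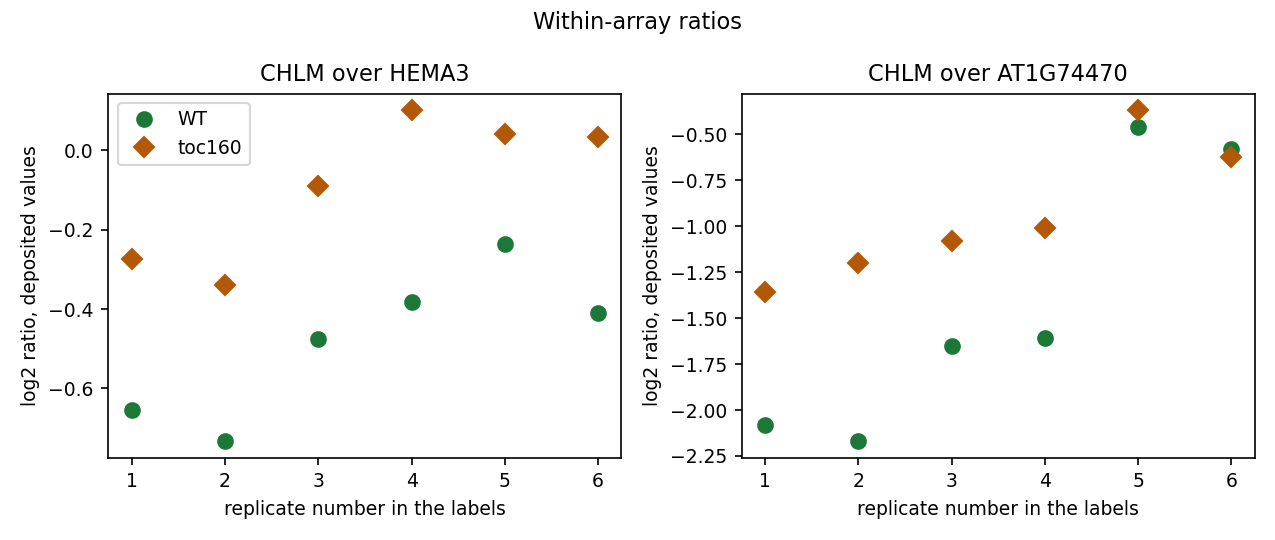
Log2 ratio of the deposited intensities of CHLM over HEMA3 (left) and CHLM over AT1G74470 (right) on each array (vertical axis) by replicate number (horizontal axis), with WT as green circles and toc160 as orange diamonds. The first ratio is higher in toc160 at each of the 6 numbers, and the second is higher at numbers 1 to 5 but close to equal at 5 and 6.

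Of 37 listed genes of tetrapyrrole and chlorophyll synthesis, only the 3 described had a probe of their own, and 4 more were named only by probes with several genes and were not analysed here. None of 11 listed regulators, 9 chlorophyll breakdown genes, 10 genes of geranylgeranyl diphosphate supply and 8 carotenoid genes had one. Of 6 tocopherol genes 1 was measured. It was AT1G78620, whose product is known to phosphorylate phytyl phosphate, made from the phytol of chlorophyll, on the way to tocopherol. Its WT mean was 0.448 ± 0.157 and its toc160 mean 0.578 ± 0.105 (deposited intensity, SD over 3 pair averages). Its log2 difference was 0.07 after quantile normalization (SE 0.26, limma adjusted p 1), and like CHLM it was lowest in replicates 1 and 2 in both genotypes.

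LHB1B2, a chlorophyll-binding antenna protein, was the only measured gene among 17 markers of photosynthetic tissue. None of 10 seed storage markers was measured, and the tissue was not checked beyond these lists. Its deposited pair averages were 15.4, 8.34 and 3.43 in WT and 1.94, 2.03 and 1.58 in toc160. The WT level of this gene was lowest in replicates 5 and 6, as that of AT1G74470 was. Its log2 difference was -1.90 after quantile normalization (SE 0.53, limma adjusted p 0.262 on pair averages), with -2.62, -1.98 and -1.10 in the 3 pairs. It did not pass blocked by pair either (limma adjusted p 0.109). With median centring it passed in that blocked fit (limma adjusted p 0.00133), where 10.1% of loci passed. Without the dimmest 25% of loci it passed without the block (limma adjusted p 0.0482) and with it (3.55e-12), where 3.09% and 22.4% of loci passed. On 12 arrays it passed without a block (limma adjusted p 0.00527), blocked by number (0.0043) and with the random effect (0.0109). In those fits 10.4%, 28.4% and 4.34% of loci passed. The fits of 12 arrays without a block and blocked by number count near-duplicate arrays as separate samples. Near-identical copies of this gene exist, and whether its probe tells them apart was not tested.

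The loci most like each gene over the 12 arrays were found by Pearson's r among the 630 other loci above the floor on all arrays. For CHLM they were AT3G04210 (0.957), AT5G02050 (0.953) and AT4G34310 (0.949), and 9 loci had an r over 0.9. For AT1G74470 they were AT1G01730 (0.940), AT2G04540 (0.929) and AT1G64430 (0.920), of 6 loci over 0.9. For HEMA3 they were AT2G03390 (0.924), AT2G38570 (0.920) and LpxA (AT4G29540, 0.904), the 3 loci over 0.9. Over the 6 pair averages these 9 correlations were between 0.943 and 0.983. None of the 9 loci passed in toc160 minus WT by limma on pair averages. With 12 arrays in 6 near-duplicate pairs, such values describe these arrays only.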

How the data were processed

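Transcript levels came from 12 single-channel arrays, 6 per genotype, grouped by the labels' titles. The deposited table holds linear intensity values between 0 and a ceiling of 100 on every array, so the authors scaled them before they were deposited. The sources used here do not give the scanner, the background correction or the form of that scaling. The genome build is not stated either, so no positions are given. Depth has no counterpart on these arrays.

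Probes were named from the platform annotation, which held 692 probes with a single gene, 870 with several genes and 1877 without any. Of the 692, 690 matched the TAIR10.1 reference table, and averaging probes of 1 locus left 691 loci. Values were raised to a floor of 0.0364 (percentile 1 of positive values), log2 transformed and quantile normalized over all probes. Log2 differences come from limma 3.58.1 in R 4.3.3 over all loci, on pair averages without a block, adjusted by Benjamini-Hochberg and called at 0.05. Differences between pairs and of genotype by pair used limma's moderated F test. The code of the fits was run on simulated data with known changes. That run does not show how well differences as small as those of HEMA3, CHLM and AT1G74470 can be found.

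The labels do not state a pairing of samples across genotypes, and the pairing by number was taken from the data. After genotype means were removed, WT and toc160 arrays with the same number correlated with r of 0.482 to 0.727 for all 6 numbers. Pair averages of the same numbers correlated with r of 0.568 to 0.797. Arrays of different numbers were not compared in this way. A match of single numbers within a near-duplicate pair is therefore not shown. Alternatives were other scalings, another floor, a filter on dim loci, all probes, blocked fits, 12-array fits and leaving out pairs or arrays. The genes, gene lists, pairs and tests were chosen with earlier results of these data known. Named loci follow a set rule: the 3 genes, the 3 most similar profiles of each, and every measured gene of the pathway and marker lists. The within-array ratios were added after the values were seen.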

Additional observations from a re-analysis of the deposited data

How the results depend on the processing

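With the replicate block by number on 12 arrays CHLM kept its log2 difference of 0.22 and passed (limma adjusted p 0.0269), and in its other 29 settings it did not pass and stayed above 0. The replicate block by pair on pair averages, under all 4 scalings, changed no call of the 3 genes. HEMA3 turned to 0.0589 as deposited, with and without the replicate block by pair, and passed in none of 30 settings. AT1G74470 passed in none of 30 and ranged from -0.122 to 0.082 when a pair or an array was left out. The number of loci called, 3 in the fit used, was 30 as deposited, 11 with median centring, 5 with the higher floor, 16 without the dimmest 25% and 76 of all 3439 probes. It was 12 with the replicate block by pair, and with that block 256 as deposited, 70 with median centring, 21 with cyclic loess and 116 without the dimmest loci. On 12 arrays it was 72 without a block, 196 with the replicate block by number and 30 with a random effect. It ranged from 0, without any 1 of the 3 pairs (65, 47 and 86 loci at an unadjusted p under 0.05 in limma), to 8 without WT replicate 5, and was 1 without toc160 replicate 3. The gap between pairs passed for CHLM (0.495) and AT1G74470 (0.70) with median centring, and for both (0.462 and 0.635) without the dimmest loci. Genotype by pair passed as deposited for HEMA3 (0.379) and CHLM (0.434), with cyclic loess for CHLM (0.361) and with median centring for AT1G74470 (0.567). The causes of these shifts were not tested. The signal over background is unknown, as no background values were given.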
